A study of Mus musculus with 3 samples.

Results

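The miRNAs described here are both arms of the miR-21 hairpin, miR-21-5p and miR-21-3p, chosen by their names and not by a measured value. Earlier results of these data were known when the choice was made. Both arms were listed in each of the 3 libraries, so they are 2 of the 693 miRNAs measured. Short RNA was sequenced from TAG1 cells, a mouse ES cell line in which Dox induces a constitutively active Alk4* receptor, with 1 library per condition. The Control library came from untreated cells, and the SB library from cells kept for 16 hrs in 30 µM of the inhibitor spelled SB-431541 in the labels (SB-431542 in the methods), which blocks phosphorylation of Smad2/3. The Dox library came from cells given the same 16 hrs of SB followed by Dox at 1 µg/µl over 12 hrs, which activates Smad2/3 through the induced receptor. The methods give FBS in the medium of Control cells but Knockout Serum Replacement in that of the treated cells, so medium and treatment cannot be told apart in a comparison with Control. TAG1 is a single line derived from J1 ES cells.

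miRNAs are cut from long primary transcripts, first by Drosha in the nucleus to a hairpin and then by Dicer to a short duplex. One strand of the duplex, the guide, is usually kept by the silencing complex, and the other, the passenger, is mostly lost. miR-21-5p is the guide of its hairpin, is abundant in fibroblasts, smooth muscle and many tumors, and is known to repress Pdcd4. It is a known case of regulation by TGF-β after transcription, in which receptor-activated Smads bind the stem of the primary transcript and assist Drosha.

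The mature sequences are shown first, with the seed (bases 2 to 8, which pair with targets) in capitals. They come from RefSeq, build GRCm38.p6, where the hairpin is named Mir21a, with Mir21 as a synonym.
miR-21-5p: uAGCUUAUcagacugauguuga
miR-21-3p: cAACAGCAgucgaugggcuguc
Both are 22 bases long and lie on the minus strand of chromosome 11, the 5p arm from 86584120 to 86584141 and the 3p arm from 86584082 to 86584103. The hairpin spans 86584067 to 86584158 and falls in the 3′ untranslated part of exon 12 of Vmp1, a gene with a role in autophagy, which is transcribed in the same direction. Of the mature sequences in RefSeq, only miR-21c shares the seed of miR-21-5p and none shares that of miR-21-3p. miR-21c is not listed in the files, and it matches miR-21-5p over the first 15 bases, which is fewer than the more than 16 bases that the authors required of a read.

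The receptor-activated Smads are known to recognise the letters CAGAC in the stems of some primary miRNA transcripts. The letters are in capitals below, in the members of the list of Smad-assisted miRNAs (miR-21, miR-105, miR-199a, miR-215, miR-421 and miR-509) for which a mature RefSeq sequence held them. The hairpin of miR-421 also holds them, from base 50 of its 76 bases. No mature sequence was found under the name miR-421-3p, so that arm was not checked and is not printed.
miR-21-5p: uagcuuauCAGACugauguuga
miR-199a-5p: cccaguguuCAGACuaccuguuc
miR-215-5p: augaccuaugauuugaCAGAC
CAGAC occupies bases 9 to 13 of miR-21-5p, directly after its seed. Of all mature mouse sequences in RefSeq, 28 of 1679 (1.67%) hold it. The hairpin of miR-21 holds CAGAC once and its reverse complement GUCUG once, which do not overlap. In a predicted fold of the hairpin 4 of the 5 bases of CAGAC were paired, each with a base of the 3p arm. Of the 1005 hairpins in RefSeq, 80 (7.96%) hold CAGAC, 143 (14.2%) hold GUCUG and 18 (1.79%) hold both. A match describes the letters only.

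miR-21-5p was an abundant miRNA in these cells and was highest in the SB library. Its level was 1159 rpm (reads scaled to 1000000 reads of the library) in Control, with a 95% Poisson interval of 1139 to 1179 from 12698 reads. In SB it was 2486 rpm (2457 to 2515, 28226 reads), and in Dox 2041 rpm (2013 to 2070, 20201 reads). The order was therefore Control, Dox and SB from low to high, and no interval overlapped another. Among the 693 listed miRNAs it ranked 48 from the top in Control, 23 in SB and 36 in Dox. As a share of the reads on listed miRNAs it was 0.409% in Control (Clopper-Pearson interval 0.402 to 0.416), 1.03% in SB (1.02 to 1.04) and 0.612% in Dox (0.603 to 0.620).

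miR-21-3p was far rarer and had another order. It had 120 reads or 11.0 rpm in Control (9.08 to 13.1), 154 reads or 13.6 rpm in SB (11.5 to 15.9) and 215 reads or 21.7 rpm in Dox (18.9 to 24.8). The intervals of Control and SB overlapped, and that of Dox lay above both. As a share of the reads on listed miRNAs it was 0.00387% in Control (0.00321 to 0.00463), 0.00562% in SB (0.00477 to 0.00658) and 0.00651% in Dox (0.00567 to 0.00744). On this scale it was the intervals of SB and Dox that overlapped, and that of Control lay below both. Its rank was 324 in Control, 287 in SB and 262 in Dox. These intervals hold counting error alone: the reads carry no molecular identifiers, so copies of 1 molecule cannot be set apart, and there was 1 library per condition.

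**Figure D1:**
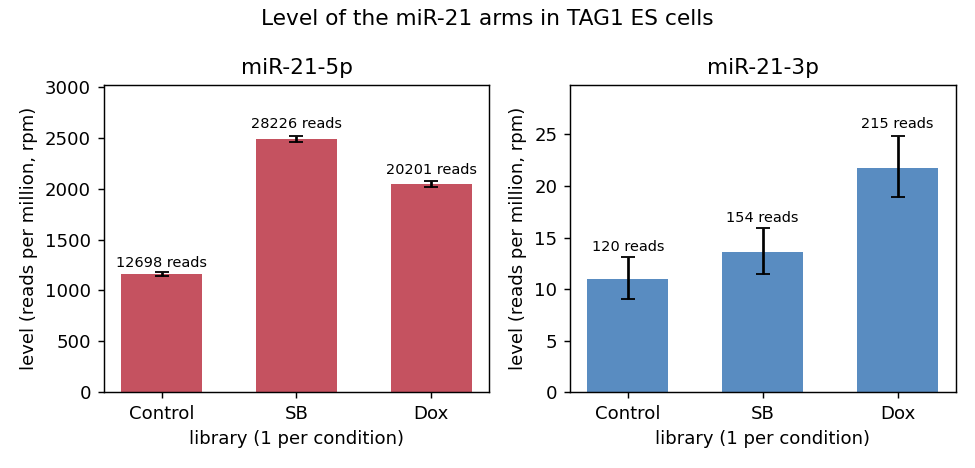
Level in rpm (vertical axes) of miR-21-5p (left) and miR-21-3p (right) in the Control, SB and Dox libraries, 1 bar per library with its 95% Poisson interval (counting error only) and its number of reads. miR-21-5p was highest in SB, at 2486 rpm, and miR-21-3p in Dox, at 21.7 rpm.

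The first comparison asks what changed when Smad2/3 activation was blocked. miR-21-5p was 2.14-fold higher in SB than in Control, a log2 ratio of 1.10 (1.07 to 1.13, exact interval of the ratio of 2 read numbers). For miR-21-3p the log2 ratio was 0.31 (−0.05 to 0.66), an interval that includes 0. By the criteria of the study (the higher of the 2 levels at least 25% above the lower, and a Z-score for the proportions of reads beyond the two-sided 5% point of the normal distribution), miR-21-5p was called higher and miR-21-3p was not called. Of the 693 miRNAs, 106 (15.3%) were called higher and 209 (30.2%) lower, and the median log2 ratio was −0.19. This balance turned with the scaling, to 165 higher and 144 lower on the scale of miRNA reads. Of the listed miRNAs, 58 had a higher log2 ratio than miR-21-5p. The Z-score compares the reads of 2 libraries and not the conditions.

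Among the 35 miRNAs whose mean level was within 2-fold of that of miR-21-5p, 20 were called lower and 5 higher, with a median log2 ratio of −0.45. A pair of them, let-7g-5p (1.12) and miR-29a-3p (1.36), had a higher log2 ratio than miR-21-5p. These names were chosen after their values were seen. The 134 miRNAs within 2-fold of the level of miR-21-3p had a median log2 ratio of −0.31, and 28 of them had a higher one than miR-21-3p.

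The second comparison asks what changed when Smad2/3 was activated after inhibition, and both libraries were in the same medium. The Dox cells were, however, cultured longer after the start of SB, and only they received Dox. Longer culture, Dox itself and Smad2/3 activation therefore cannot be told apart in this comparison. In the parental line, which lacks the inducible receptor, the paper reports qPCR of other miRNAs and not of miR-21. A response of miR-21 to Dox itself was not tested. The arms of miR-21 had ratios on opposite sides of 0. miR-21-5p was 1.22-fold lower in Dox than in SB, a log2 ratio of −0.28 (−0.31 to −0.26), which is under the fold threshold. With the total of all sequenced reads as the scale, an alternative chosen after the values were seen, it was 1.27-fold lower and met the criteria. miR-21-3p was 1.60-fold higher, a log2 ratio of 0.68 (0.37 to 0.99), and was called higher. Of all listed miRNAs, 289 (41.7%) were called higher and 124 (17.9%) lower, and the median log2 ratio was 0.38. Scaled to miRNA reads, 163 were called higher and 218 lower. Against that background miR-21-5p stood low, with 497 miRNAs above it, while miR-21-3p had 251 above it. Of the 35 miRNAs near the level of miR-21-5p, 28 were called higher, and 5 had a lower log2 ratio than miR-21-5p. Named after their values were seen, these are miR-29a-3p (−1.41), miR-221-3p (−0.68), let-7a-5p (−0.53), let-7g-5p (−0.35) and let-7e-5p (−0.35).

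These calls depended on how the libraries were scaled. Reads on listed miRNAs made up 28.3% of the reads used for normalization in Control, 24.1% in SB and 33.4% in Dox. Scaling each library to its reads on listed miRNAs moved the median of all miRNAs by 0.23 for SB over Control and by −0.47 for Dox over SB. The log2 ratio of miR-21-5p for Dox over SB was then −0.75. It was negative under all 6 scalings tried and met the criteria for a lower level under each of the other 5. The log2 ratio of miR-21-3p for Dox over SB became 0.21, and it was not called under miRNA-read, median-of-ratios or TMM scaling. Its log2 ratio for SB over Control ranged from 0.07 (scaled to miR-26a-5p) to 0.57 (quantile normalization), and it was called higher under 4 of the 5 other scalings. Relative to the median of all miRNAs, miR-21-5p was higher by 1.29 in SB over Control and lower in Dox over SB, at −0.66, under the authors' scaling.

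**Figure D2:**
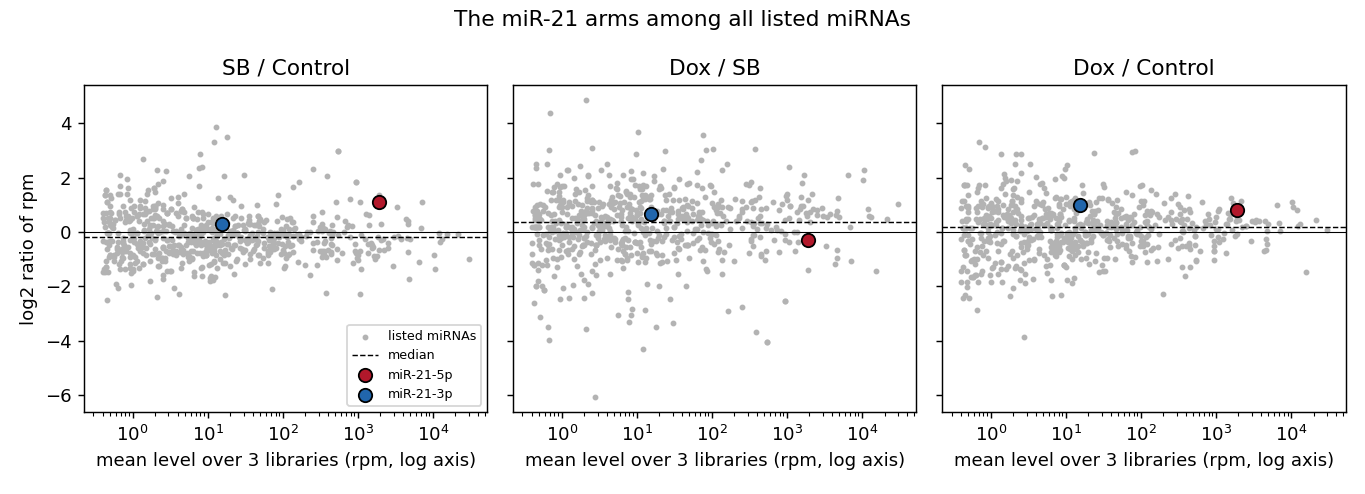
log2 ratio of rpm (vertical axis) against the mean level over the 3 libraries in rpm (log axis) for the 693 listed miRNAs (gray points) in the 3 comparisons, with the miR-21 arms in color and the median of all miRNAs as a dashed line. miR-21-5p lies above most miRNAs of its level for SB over Control (1.10) and below most for Dox over SB (−0.28).

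**Figure D3:**
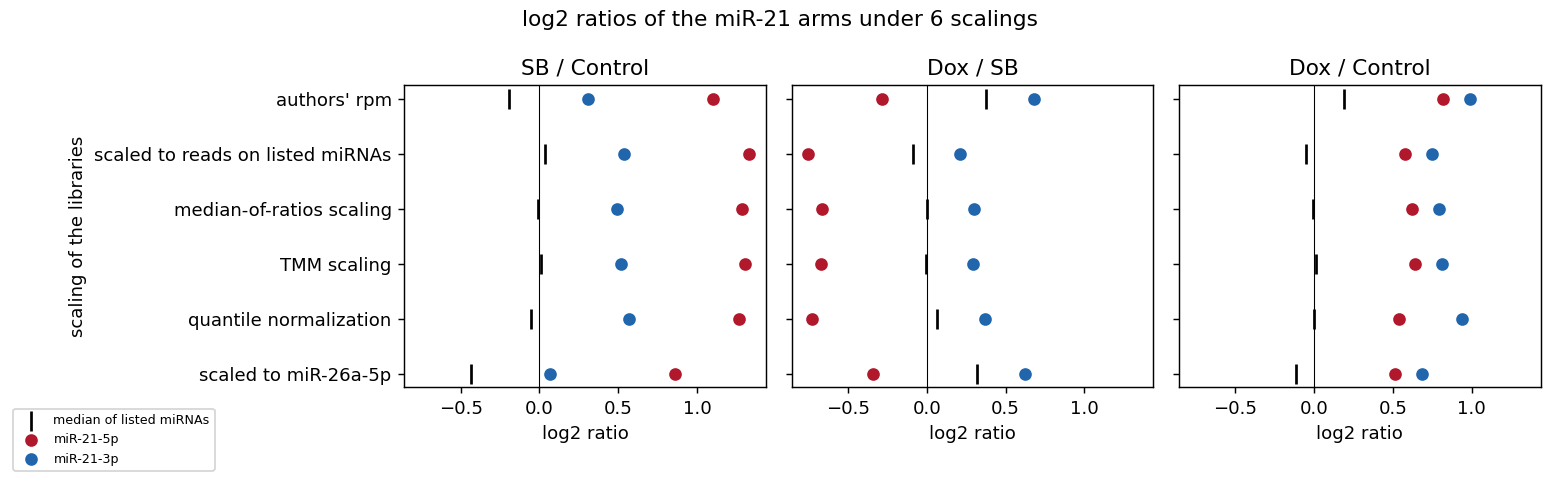
log2 ratio (horizontal axis) of miR-21-5p and miR-21-3p, and the median of all listed miRNAs (black ticks), in the 3 comparisons under the authors' rpm and 5 other scalings of the libraries (rows). The ratio of miR-21-5p for Dox over SB runs from −0.75 to −0.28, and no point of either arm crosses 0.

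The third comparison sets induced against untreated cells. Both arms were higher in Dox than in Control. The log2 ratio was 0.82 (0.78 to 0.85) for miR-21-5p, or 1.76-fold, and 0.99 (0.66 to 1.32) for miR-21-3p, or 1.98-fold. Both were called higher, as were 212 of the listed miRNAs (30.6%), with 137 (19.8%) called lower and a median log2 ratio of 0.19. Scaled to miRNA reads, 143 were called higher and 202 lower. Both calls were made under each of the 6 scalings. Of the miRNAs near the level of miR-21-5p, 4 had a higher log2 ratio, and these, again named after their values were seen, are miR-7a-5p (1.26), miR-292-5p (1.16), miR-25-5p (1.08) and miR-182-5p (0.86). The 3 comparisons share libraries in pairs and are not independent of each other.

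The ratio of the arms within a library does not depend on a linear scaling, which divides both by the same total. There were 106 reads of miR-21-5p for each read of miR-21-3p in Control (88.4 to 128), 183 in SB (156 to 216) and 94.0 in Dox (82.1 to 108). The 3p arm thus made up 0.936% of the reads of the hairpin in Control (0.777 to 1.12), 0.543% in SB (0.460 to 0.635) and 1.05% in Dox (0.918 to 1.20). The SB library stood apart, and the intervals of Control and Dox overlapped. On the log2 scale the ratio changed by 0.79 from Control to SB (0.45 to 1.14) and by −0.96 from SB to Dox (−1.26 to −0.66). From Control to Dox the change was −0.17 (−0.50 to 0.15). Under quantile normalization the changes were 0.70, −1.09 and −0.40.

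Both arms were listed for 239 hairpins, and for 62 of these each arm had at least 100 reads in every library. Of these 62, only miR-290 had a more uneven pair of arms than miR-21, in each of the 3 libraries. That place depends on the minimum of 100 reads, which leaves out hairpins with a rare arm. Among all 239, others were more uneven. In Control the log2 ratio of 5p over 3p reads was 11.7 for miR-672 and −11.5 for miR-140, against 6.73 for miR-21. A change in the arm ratio as large as that of miR-21 was not rare. From Control to SB 9 of the 62 hairpins (14.5%) changed by more in size, and 4 by more in the same direction, which were miR-17, miR-154, miR-34a and miR-485 (named after their values were seen). From SB to Dox 21 of them (33.9%) changed by more in size, and the median size of the change was 0.61. The arms had ratios on opposite sides of 0 in 23 of the 62 hairpins (37.1%) for Dox over SB, miR-21 included.

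**Figure D4:**
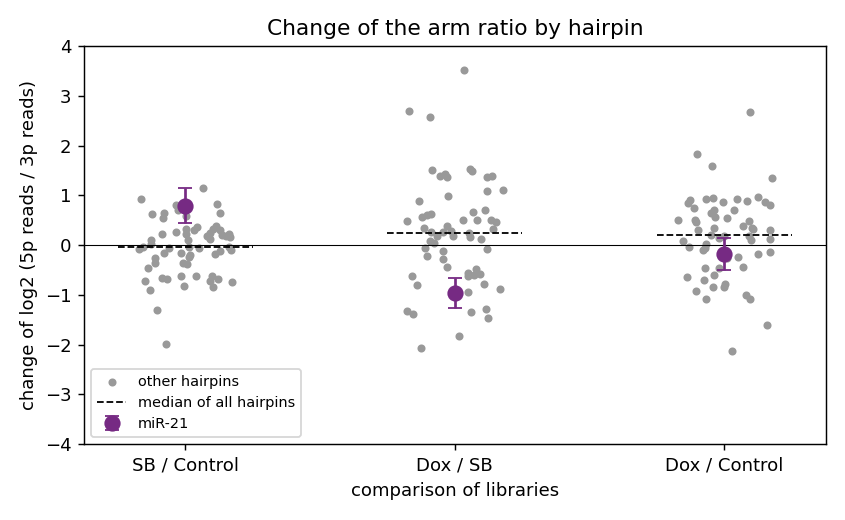
Change of the log2 ratio of 5p reads over 3p reads (vertical axis) in the 3 comparisons, for miR-21 (purple, with its 95% counting interval) and the other hairpins with at least 100 reads per arm in every library (gray), the dashed lines being the median over all 62. miR-21 is near the top for SB over Control (0.79) and in the lower part for Dox over SB (−0.96).

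The other miRNAs of the Smad-assisted list did not share 1 pattern with miR-21. miR-105 and miR-509 were not listed, and 4 arms of the other 3 miRNAs were. miR-199a-3p, the abundant arm of a miRNA of mesenchymal cells, had 547 rpm in Control, 1943 rpm in SB and 337 rpm in Dox, with log2 ratios of 1.83 (1.79 to 1.87) for SB over Control and −2.53 (−2.58 to −2.48) for Dox over SB. miR-199a-5p, which carries CAGAC, had 40 reads in Control, 220 in SB and 23 in Dox, with log2 ratios of 2.41 and −3.06. Both were called higher in SB than in Control and lower in Dox than in SB, and miR-199a-3p has the same values as miR-199b-3p in the files. miR-421-3p, whose hairpin holds CAGAC too, went the other way, with 28.2, 22.5 and 29.9 rpm in the order Control, SB and Dox. Its log2 ratio was −0.33 (−0.57 to −0.08) for SB over Control and 0.41 (0.17 to 0.66) for Dox over SB, called lower and then higher under the authors' scaling. It was not called under 4 of the other scalings. miR-215-5p had 11, 12 and 9 reads, too few to show a difference at this depth. For Dox over Control 0 of the 4 were called higher and 1, miR-199a-3p (−0.70), lower, beside 30.6% and 19.8% of all listed miRNAs, and under each of the other 5 scalings 2 were called lower.

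A longer list of miRNAs reported to respond to TGF-β in other cells (the miR-200 and miR-29 families, miR-155, miR-192, miR-181a, miR-181b, miR-23a, miR-24 and miR-27a) had 23 listed arms. For SB over Control 6 were called higher and 7 lower (15.3% and 30.2% of all listed miRNAs), with a median log2 ratio of 0.13, and 2 stood above miR-21-5p. These were miR-29b-3p (1.38) and miR-29a-3p (1.36), of a family known for restraining collagen genes. For Dox over SB 13 were called higher and 6 lower (41.7% and 17.9% of all), with a median of 0.68. miR-200a-3p and miR-200b-3p, which repress Zeb1 and Zeb2, had log2 ratios of 1.61 and 1.49 for Dox over SB, opposite in sign to miR-21-5p. The 6 called lower, with the sign of miR-21-5p, were miR-29a-3p (−1.41), miR-29b-3p (−1.43), miR-29c-3p (−0.46), miR-29a-5p (−2.46), miR-155-5p (−1.33) and miR-181a-5p (−1.04). miR-192-5p had 282, 291 and 712 rpm in Control, SB and Dox. For Dox over Control 10 of the 23 were called higher and 1, miR-181a-5p (−0.67), lower (30.6% and 19.8% of all), with a median of 0.28. The median turned to −0.12 for SB over Control and −0.02 for Dox over Control with the libraries scaled to miR-26a-5p, where 3 were called higher and 7 lower in the first of these and 8 and 7 in the second. Of all 693 miRNAs this scaling called 65 higher and 297 lower in the first and 133 and 217 in the second. With miRNA-read or TMM scaling 10 of the 23 were called higher and 5 lower for SB over Control, beside 165 and 144 or 161 and 145 of all. For Dox over SB the calls became 10 higher and 9 lower under miRNA-read, TMM and median-of-ratios scaling, with medians of 0.21, 0.29 and 0.30, beside 163 and 218, 184 and 202, and 185 and 201 of all.

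Since miR-21-5p is abundant in fibroblasts, a list of 18 miRNAs known from fibroblasts and other mesenchymal cells, without miR-21, was set beside it. This list, too, was chosen with earlier results of these data known. All 18 were listed, among them the arms of miR-199a described above. For SB over Control 15 were called higher and 0 lower (15.3% and 30.2% of all listed miRNAs), with a median log2 ratio of 1.74. The counts and medians of this list take miR-199a-3p and miR-199b-3p, which share their values, separately. They also hold both arms of some hairpins, so the 18 are not independent. Among the abundant ones, miR-199a-3p (given above), miR-34c-5p (503, 1179 and 709 rpm in Control, SB and Dox) and miR-22-3p (462, 684 and 420 rpm) were called higher, whereas miR-152-3p (502, 427 and 379 rpm) was not called. For Dox over SB 16 were called lower and 1 higher (17.9% and 41.7% of all), with a median of −2.49. The summed level of the list, counting the shared values of miR-199a-3p and miR-199b-3p once, was 2304 rpm in Control, 5111 rpm in SB and 2083 rpm in Dox. None was at 0, although miR-214-3p and miR-214-5p had 1 read each in Dox. For SB over Control the log2 ratio of the sums was 1.15, close to the 1.10 of miR-21-5p. Most of each sum came from miR-199a-3p, miR-34c-5p, miR-22-3p and miR-152-3p. The closeness did not hold for the median of 1.74, and 11 of the 18 stood above miR-21-5p. For Dox over SB the log2 ratio of the sums was −1.30, while that of miR-21-5p was −0.28. All but miR-152-3p (−0.17) and miR-145-3p (0.88), or 16 of the 18, stood below miR-21-5p. The ratio of miR-21-5p to the sum was 0.503 in Control, 0.486 in SB and 0.980 in Dox. For Dox over Control 3 of the list were called higher and 8 lower (30.6% and 19.8% of all), with a median log2 ratio of −0.53. The 3 were miR-143-3p (0.37), miR-34c-5p (0.50) and miR-145-3p (1.11), and only the last, with 19, 23 and 37 reads in Control, SB and Dox, stood above miR-21-5p. Under the other scalings 1 or 2 of the 18 were called higher. The medians of this list had the same sign under each of the 6 scalings. Fewer cells of a type and less RNA per cell cannot be told apart in these libraries, and the part of other cells in the levels of miR-21 was not tested.

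A list of 17 miRNAs that mark ES cells, most arms of the cluster that begins with miR-290 and the 3p arms of that which begins with miR-302, was listed in full, with a summed level of 81818 rpm in Control, 65169 rpm in SB and 93753 rpm in Dox. The log2 ratio of these sums was 0.52 for Dox over SB and 0.20 for Dox over Control, against 0.06 and −0.04 with miRNA-read scaling. The ratio of miR-21-5p to that sum was 0.0142 in Control, 0.0381 in SB and 0.0218 in Dox. For SB over Control 5 of the 17 were called higher and 4 lower (15.3% and 30.2% of all listed miRNAs), and none had as high a log2 ratio as miR-21-5p. For Dox over SB 7 were called higher and 8 lower (41.7% and 17.9% of all), and for Dox over Control 6 were higher and 7 lower (30.6% and 19.8%). The median log2 ratios were −0.05, −0.06 and −0.0025 in this order, and the first was positive under 4 of the 5 other scalings. With the libraries scaled to miRNA reads the calls were 8 higher and 2 lower for SB over Control, 3 and 9 for Dox over SB, and 2 and 8 for Dox over Control, beside 165 and 144, 163 and 218, and 143 and 202 of all 693 miRNAs. The same clusters had 6 other listed arms, with 68.7, 37.8 and 90.7 rpm in sum in Control, SB and Dox. Counting all 23 arms, a choice made after the values were seen, 5 were called higher and 8 lower for SB over Control, 10 and 8 for Dox over SB, and 7 and 8 for Dox over Control, and the medians became −0.24, 0.25 and 0.07.

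**Figure D5:**
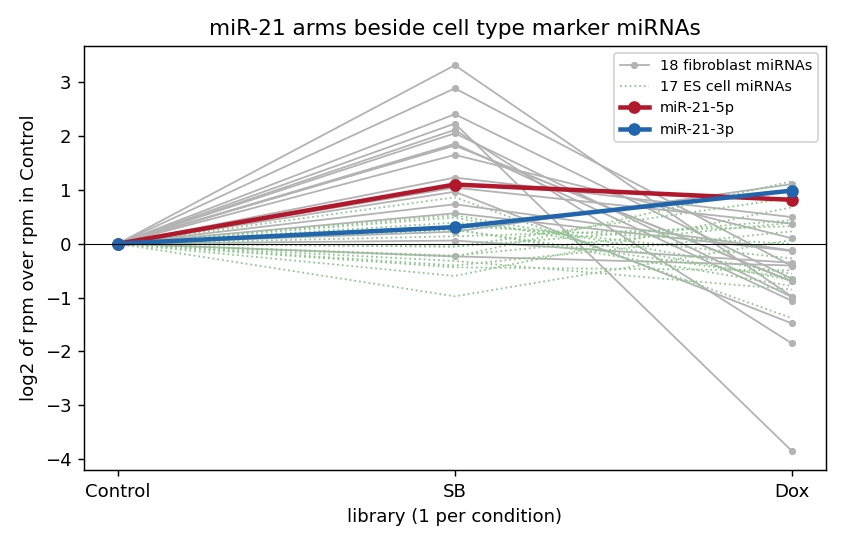
log2 of the level over that in Control (vertical axis) in the 3 libraries, for the miR-21 arms, 18 fibroblast miRNAs (gray) and 17 ES cell miRNAs (green, dotted). In Dox miR-21-5p stays 0.82 above its level in Control, while the fibroblast miRNAs have a median of −0.53.

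Over the 3 libraries, the pattern most like that of miR-21-5p was that of let-7g-5p, of 457 other miRNAs with at least 100 reads in all. let-7g-5p, of a family that rises as ES cells differentiate, has the following sequence, with its seed in capitals to show that it differs from that of miR-21-5p.
let-7g-5p: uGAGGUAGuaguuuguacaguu
It had 654 rpm in Control, 1419 rpm in SB and 1110 rpm in Dox, at a distance of 0.05 from miR-21-5p (Euclidean distance of the log2 levels, each miRNA centered on its mean). Next came miR-211-5p, miR-3079-5p, miR-671-5p and miR-191-3p, at distances from 0.20 to 0.27 and with levels under 6 rpm in each library. The nearest to miR-21-3p were miR-669d-5p, miR-124-5p, miR-28-3p, miR-1196-5p and miR-150-5p, at distances from 0.03 to 0.17. The arms of miR-21 were 0.73 apart, so that 63 miRNAs were nearer to miR-21-5p than its own passenger was. With 3 libraries, many miRNAs can be near by this measure. miR-26a-5p, the reference of the study in qPCR, had 647, 766 and 798 rpm in Control, SB and Dox and was called in no comparison.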

How the data were processed

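Libraries were sequenced over 2 runs, pooled by the authors. After adaptor trimming, the authors aligned reads of more than 16 bases to the mature sequences of miRBase release 18, and those left over to its hairpins, with Bowtie 0.12.7 (a version the submitters' processing notes also give) and no mismatch. A read with several matches went to the miRNA of nearest length or, in a tie, to all of them, and a hairpin read to the arm it overlapped, even in part. The values deposited are rpm, for which the authors divided each read number by the library's total and multiplied by 1000000, and the miRNAs are those with 10 or more reads in all. All 2079 values were whole multiples of 1 step per library (within 0.001 read), which gave the read numbers and totals of 10955686 (Control), 11354692 (SB) and 9895513 reads (Dox). These are below the totals of sequenced reads given in the study, which served as an added scaling.

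Ratios of rpm were taken with no pseudocount, in Python 3.11.15 and SciPy 1.17.1. With 1 library per condition no test of a condition was possible. Intervals are 95% exact intervals, except that of the change in the arm ratio, which used Poisson standard errors. The Z-score compared the proportions of reads in 2 libraries with a pooled variance. The hairpin was folded with RNAfold 2.7.2, and the annotation was GENCODE M21 (GRCm38), whereas the files hold no coordinates. In RefSeq, 516 of the 693 miRNAs were found under the same name, and miR-21 by its synonym. miRNAs named beside miR-21 were those of its seed, of the lists, miR-26a-5p and the 5 most alike to each arm, and others only where 5 or fewer stood beyond miR-21 among those of like level or the hairpins. The members and lists were chosen with earlier results of these data known. The scripts were tested on simulated data. Alternatives were 5 other scalings, a pseudocount of 1 rpm, fold thresholds of 1.5 and 2, a minimum of 100 reads and counting identical values once.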

Additional observations from a re-analysis of the deposited data

How the results depend on the processing

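Of 108 alternative values, 70 stayed within the interval or within 1.5 times the count of the main one, 38 moved further and 0 log2 ratios with a call changed sign. In the order miRNA reads, median of ratios, TMM, quantile and miR-26a-5p, the log2 ratio of miR-21-5p was 1.33, 1.28, 1.31, 1.27 and 0.86 for SB over Control. For Dox over SB it was −0.75, −0.66, −0.67, −0.73 and −0.34, and for Dox over Control 0.58, 0.62, 0.64, 0.54 and 0.52. For miR-21-3p in Dox over SB the first 4 of these scalings gave 0.21, 0.30, 0.29 and 0.37. Scaling to all sequenced reads, chosen after seeing the data, gave miR-21-5p −0.35 for Dox over SB (called lower) and 0.75 for Dox over Control. Called higher and lower in SB over Control were 165 and 144 (miRNA reads), 152 and 150 (median of ratios), 161 and 145 (TMM), 144 and 177 (quantile) and 65 and 297 (miR-26a-5p), against 106 and 209. In Dox over SB, miRNA reads, median of ratios and TMM gave 163, 185 and 184 higher, against 289, and 218, 201 and 202 lower, against 124. Scaling to miR-26a-5p gave 133 higher and 217 lower in Dox over Control, against 212 and 137. At a fold threshold of 2 the counts higher and lower were 49 and 67, 154 and 67, and 94 and 56 in the 3 comparisons. A pseudocount, a fold threshold of 1.5, a minimum of 100 reads and counting identical values once moved no value this far.

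No paired analysis was possible because each condition had 1 library, so no replicate could be left out either. The depth limits miR-21-3p, at 120 to 215 reads, far more than miR-21-5p, and variation between cultures was not measured.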
